A study of Homo sapiens with 11 samples.

Results

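The genes described here make up the MHC class I antigen presentation pathway: HLA-B, HLA-C, HLA-E, HLA-F, B2M, TAP1, TAP2, PSMB8 and PSMB9. Their members were taken as every probe set, a group of short probes that report 1 transcript, that the array annotation gives to 1 of these gene symbols. This gave 23 probe sets of 9 genes among 54675 probe sets on the array. No probe set with several symbols held any of the 9.

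RNA came from A673sh, a derivative of the Ewing sarcoma cell line A673 in which doxycycline switches on an shRNA against EWS-FLI1, the fusion protein that drives this tumor. The cells were transiently transfected and measured on 11 Affymetrix HG-U133 Plus 2 arrays in 7 groups. In 4 groups of 2 arrays each they received a pRS plasmid with a scrambled shRNA (sh-scrambled) or with an shRNA to endogenous FOXO1 (sh-FOXO1), either without doxycycline or with 1 µg/ml doxycycline for 48 h (+ dox). In 3 groups of 1 array each, all without doxycycline, they received the empty pCDNA3 vector, Flag-tagged FOXO1 that AKT cannot phosphorylate (T24A, S256A and S319A) or Flag-tagged FOXO1 that CDK2 cannot phosphorylate (S249A and S298A). All groups thus carry the inducible hairpin, and the study asked which genes held down by EWS-FLI1 depend on FOXO1. Doxycycline itself and the knockdown it induces cannot be told apart, since no array holds doxycycline without the hairpin.

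MHC class I molecules show short peptides from inside the cell to CD8 T cells. Proteasomes cut the peptides, with PSMB8 and PSMB9 replacing the standard catalytic subunits in the immunoproteasome, and TAP1 and TAP2 form the transporter that carries them into the endoplasmic reticulum. There they are loaded onto a heavy chain (HLA-B, HLA-C and, in the nonclassical group, HLA-E and HLA-F) held together with B2M, the shared light chain. HLA-E is also the ligand of the NKG2A receptor of NK cells. Interferons and NF-κB are known inducers of most of these genes, and low surface class I has been described for Ewing sarcoma.

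The bases ahead of the gene starts show what the members share and where they differ. Below are the 200 bases before the start of 6 genes, chosen because these genes rose together, stayed level or fell in the comparisons that follow. PSMB8 and PSMB9 rose as well and are not printed. They come from RefSeq (GRCh38.p14) and are written 5′ to 3′ along the gene, and 8 of the 9 symbols, all but HLA-E, matched an entry. Capitals mark letters found on either strand for the interferon-response motif (GAAA repeated after 2 bases of any kind), a form of it that is 1 letter shorter (GAANNGAAA), the CCAAT box, the cAMP-element core TGACG and the NF-κB-like strings GGGATTCCC and GGACTTTCC.
HLA-B (chr6:31357180-31357379, - strand): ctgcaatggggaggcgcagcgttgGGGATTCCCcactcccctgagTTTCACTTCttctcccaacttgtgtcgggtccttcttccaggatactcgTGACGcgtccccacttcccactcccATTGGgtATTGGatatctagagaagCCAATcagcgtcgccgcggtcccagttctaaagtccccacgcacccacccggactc
HLA-C (chr6:31272093-31272292, - strand): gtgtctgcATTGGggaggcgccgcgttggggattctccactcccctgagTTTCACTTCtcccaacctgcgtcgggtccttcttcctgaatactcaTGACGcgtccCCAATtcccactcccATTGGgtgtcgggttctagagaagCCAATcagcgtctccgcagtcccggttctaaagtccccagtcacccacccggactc
HLA-F (chr6:29723234-29723433, + strand): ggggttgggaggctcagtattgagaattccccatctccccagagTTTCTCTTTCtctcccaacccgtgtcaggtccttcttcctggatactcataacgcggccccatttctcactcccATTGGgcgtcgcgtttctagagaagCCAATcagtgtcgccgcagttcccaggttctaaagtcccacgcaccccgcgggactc
B2M (chr15:44711317-44711516, + strand): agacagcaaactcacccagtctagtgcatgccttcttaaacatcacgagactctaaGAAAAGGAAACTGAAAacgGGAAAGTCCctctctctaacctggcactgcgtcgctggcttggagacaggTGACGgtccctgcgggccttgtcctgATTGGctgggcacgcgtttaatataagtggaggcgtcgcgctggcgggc
TAP1 (chr6:32853705-32853904, - strand): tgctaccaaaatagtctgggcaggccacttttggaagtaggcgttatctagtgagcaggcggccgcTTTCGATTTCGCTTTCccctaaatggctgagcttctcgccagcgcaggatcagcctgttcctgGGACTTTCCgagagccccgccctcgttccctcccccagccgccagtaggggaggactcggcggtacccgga
TAP2 (chr6:32838740-32838939, - strand): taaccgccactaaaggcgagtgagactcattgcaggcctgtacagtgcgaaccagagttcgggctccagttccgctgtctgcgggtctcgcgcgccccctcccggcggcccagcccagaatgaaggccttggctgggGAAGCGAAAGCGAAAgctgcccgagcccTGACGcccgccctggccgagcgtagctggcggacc

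A script searched the 250 bases before each start. The interferon-response motif was found in B2M, HLA-F, TAP1 and TAP2, and in 3.02% of all 35116 promoters searched. The shorter GAANNGAAA was found in HLA-B, HLA-C and TAP2 (6.56%), and in TAP2 both forms overlap. In HLA-F the full motif lay 156 to 147 bases before the start, and the shorter form lay 155 to 147 bases before that of HLA-B and 151 to 143 bases before that of HLA-C. The string GGGATTCCC was found in HLA-B alone among the 8 members searched (0.362% of all promoters), and GGACTTTCC in B2M and TAP1 (0.333%). CCAAT was found in HLA-B, HLA-C, HLA-F, B2M, PSMB9 and TAP1 (32.0%) and TGACG in HLA-B, HLA-C, B2M, PSMB8, PSMB9 and TAP2 (21.2%). Within these 250 bases neither PSMB8 nor PSMB9 held an interferon-response form or an NF-κB-like string. TAP1 and PSMB8 were searched at more than a single start. All TAP1 matches lay before the start printed above and none before its other start, and TGACG was likewise absent before the other start of PSMB8. TAP1 and PSMB9 lie next to each other on opposite strands. The bases printed for TAP1, with its matches, thus also lie ahead of the PSMB9 start, outside the 250 bases searched for PSMB9. A match describes letters only, and these arrays do not measure binding.

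Values are the deposited log2 array values, so a difference of 1 is a 2-fold change. A level can be compared between arrays for 1 probe set, but not between probe sets. Of the 23 member probe sets, 19 were bright enough to test, reaching on some array its own 60th percentile (5.67 to 5.72). The other 4, PSMB9 204279_at, HLA-F 221978_at, TAP2 204770_at and TAP2 208428_at, were too dim. Tests are those of limma with Benjamini-Hochberg adjustment over 25786 probe sets. Nothing in the labels says that replicates were separate cultures, so the p-values rest on spread between samples that could be purely technical. The suffixes _x_at and _s_at mark probe sets whose probes can match more than 1 transcript. HLA-B, HLA-C and HLA-F were measured mainly by such probe sets, and signal shared between these near-identical genes was not tested.

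**Figure D1:**
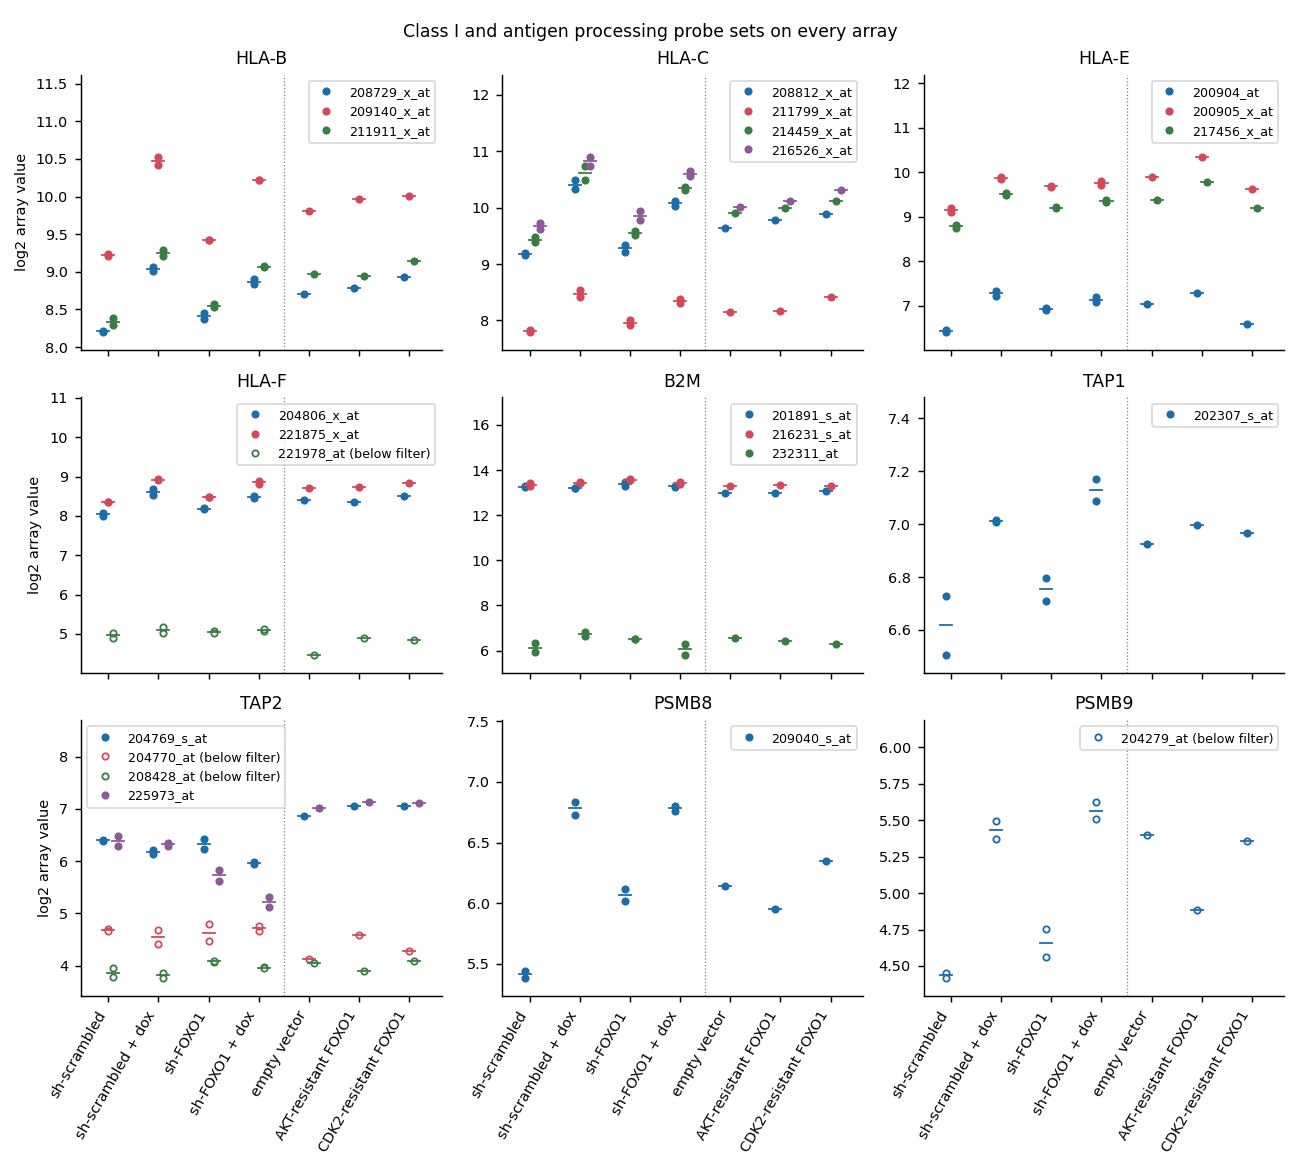
Log2 value of every member probe set (vertical axis, scaled per gene) on each of the 11 arrays, by group (horizontal axis). Points are arrays, short bars are group means, open points are probe sets below the filter and the dotted line separates shRNA from plasmid arrays. PSMB8 and the HLA-B and HLA-C probe sets are higher with doxycycline in both shRNA backgrounds, and both abundant B2M probe sets stay near 13.

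The array labels were checked on both targeted genes first. FLI1, whose 3′ part is in the fusion, fell with doxycycline in sh-scrambled cells by 1.85, 1.18 and 0.59 on the log2 scale on its 3 tested probe sets (adjusted p = 2.78e-06, 0.000137 and 0.00268, limma). In sh-FOXO1 cells the differences were -1.49, -1.19 and -0.71. The knockdown effects in sh-FOXO1 minus sh-scrambled cells were 0.37 on 204236_at, -0.01 on 210786_s_at and -0.13 on 211825_s_at (limma adjusted p = 0.196, 0.983 and 0.726). FOXO1 202724_s_at differed in sh-FOXO1 from sh-scrambled cells by -1.51 both without and with doxycycline (adjusted p = 8.31e-05 and 9.02e-05). On 202723_s_at the differences were -0.95 and -1.44, and on 228484_s_at 0.03 and 0.08. With doxycycline 202724_s_at rose by 1.85 in both sh-scrambled and sh-FOXO1 cells, and 202723_s_at by 1.36 and 0.86. FOXO1 thus still rose on these probe sets in sh-FOXO1 cells. In sh-FOXO1 + dox they averaged 6.28 and 5.75, against 5.95 and 5.83 in sh-scrambled cells without doxycycline. Among 8 Ewing sarcoma markers, 6 fell past 2-fold with doxycycline, including PRKCB (-2.88) and NKX2-2 (-2.11). Of 24 probe sets for blood and endothelial cell markers, 5 passed the filter. The log2 of the summed level of all 24 lay between 9.52 and 9.66 in all groups.

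EWS-FLI1 knockdown in sh-scrambled cells was accompanied by a broad rise of the class I heavy chains. By adjusted p alone, 15 of the 19 tested member probe sets rose and 1 fell, against 24.4% and 30.5% of all probe sets. Past the 2-fold limit as well, 5 of 19 rose (HLA-B 209140_x_at, HLA-C 208812_x_at, 214459_x_at and 216526_x_at, and PSMB8) and none fell, against 6.96% of all probe sets higher and 5.76% lower. The median difference was 0.71 over the 19 members and -0.04 over all probe sets.

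HLA-B and HLA-C, both classical heavy chains, moved most among the heavy chains. HLA-B 209140_x_at read 9.23 and 9.21 in sh-scrambled cells, 10.53 and 10.42 with doxycycline, 9.43 and 9.43 in sh-FOXO1 cells and 10.22 and 10.21 in sh-FOXO1 cells with doxycycline. On the plasmid arrays it read 9.81 for the empty vector, 9.97 for AKT-resistant and 10.01 for CDK2-resistant FOXO1. Both doxycycline groups lay above all other arrays. The difference with doxycycline in sh-scrambled cells was 1.25 (standard error 0.07, adjusted p = 2.6e-06), a 2.38-fold rise. The other HLA-B probe sets, 208729_x_at and 211911_x_at, rose by 0.83 and 0.91. On HLA-C 208812_x_at the arrays read 9.20 and 9.15 in sh-scrambled cells, 10.48 and 10.33 with doxycycline, 9.33 and 9.22 in sh-FOXO1 cells and 10.12 and 10.04 in sh-FOXO1 cells with doxycycline. The doxycycline groups again stood apart from the groups without it, and the difference in sh-scrambled cells was 1.23 (standard error 0.08, adjusted p = 8.12e-06). HLA-C 214459_x_at and 216526_x_at rose by 1.18 and 1.14, and the dimmest HLA-C probe set, 211799_x_at, by 0.66.

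HLA-E, the nonclassical heavy chain seen by NK cells, rose as well. Its probe set 200904_at, which carries no cross-matching suffix, read 6.41 and 6.46 in sh-scrambled cells and 7.21 and 7.34 with doxycycline. The difference was 0.84 (standard error 0.08, adjusted p = 5.05e-05), and 200905_x_at and 217456_x_at rose by 0.71 and 0.72. All 3 stayed under the 2-fold limit. In sh-FOXO1 cells 200904_at read 6.92 and 6.96 without and 7.08 and 7.20 with doxycycline, so the sh-FOXO1 arrays without doxycycline already lay above both sh-scrambled arrays. HLA-F, another nonclassical heavy chain, rose by 0.56 on 204806_x_at and 0.57 on 221875_x_at. Its dim probe set 221978_at, lay between 4.47 and 5.18 on all 11 arrays and was not tested.

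B2M differed between its probe sets. The bright probe set 216231_s_at read 13.31 and 13.41 in sh-scrambled cells, 13.46 and 13.41 with doxycycline, 13.59 and 13.58 in sh-FOXO1 cells and 13.40 and 13.48 in sh-FOXO1 cells with doxycycline. The sh-scrambled arrays with and without doxycycline overlapped, and their difference was 0.08 (95% interval -0.09 to 0.24, adjusted p = 0.397). Both sh-FOXO1 arrays without doxycycline lay above all others, 0.22 over sh-scrambled cells (95% interval 0.06 to 0.39, adjusted p = 0.0558). The other bright probe set, 201891_s_at, lay between 12.99 and 13.46 on all arrays and differed by -0.08 (95% interval -0.26 to 0.10, adjusted p = 0.425). The highest value of any probe set on any array was 14.64, so how far signal this bright can still rise was not tested. The dim probe set 232311_at read 5.92 and 6.35 in sh-scrambled cells, 6.66 and 6.81 with doxycycline, 6.51 and 6.54 in sh-FOXO1 cells and 6.30 and 5.82 in sh-FOXO1 cells with doxycycline. Its difference in sh-scrambled cells was 0.60 (adjusted p = 0.0233), but the adjusted p was 0.114 without sh-scrambled replicate 1, 0.0516 without sh-scrambled + dox replicate 1 and 0.111 without sh-scrambled + dox replicate 2. B2M served the study as the internal control of its RT-qPCR.

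PSMB8, a catalytic subunit of the immunoproteasome, showed the largest rise of any tested member. It read 5.44 and 5.39 in sh-scrambled cells, 6.73 and 6.83 with doxycycline, 6.02 and 6.12 in sh-FOXO1 cells and 6.76 and 6.80 in sh-FOXO1 cells with doxycycline. The groups fell into a low, a middle and a high level, with both doxycycline groups together at the top. The difference in sh-scrambled cells was 1.37 (standard error 0.07, adjusted p = 2.52e-06), a 2.58-fold rise. PSMB9, its partner subunit, did not reach the filter. It read 4.45 and 4.42 in sh-scrambled cells, 5.49 and 5.37 with doxycycline, 4.76 and 4.56 in sh-FOXO1 cells and 5.51 and 5.62 in sh-FOXO1 cells with doxycycline. In a fit without the filter the difference with doxycycline was 1.00 in sh-scrambled cells (adjusted p = 2.98e-05) and 0.91 in sh-FOXO1 cells (adjusted p = 6.19e-05), with arrays of the compared groups well apart.

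The peptide transporter subunits did not move as a pair. TAP1 read 6.51 and 6.73 in sh-scrambled cells, 7.01 and 7.01 with doxycycline, 6.80 and 6.71 in sh-FOXO1 cells and 7.09 and 7.17 in sh-FOXO1 cells with doxycycline. Its rise was small, 0.39 (standard error 0.09, adjusted p = 0.0063) in sh-scrambled cells and 0.37 (adjusted p = 0.00868) in sh-FOXO1 cells. TAP2 225973_at read 6.29 and 6.49 in sh-scrambled cells and 6.29 and 6.35 with doxycycline, a difference of -0.07 (95% interval -0.32 to 0.18, adjusted p = 0.616). TAP2 204769_s_at fell by 0.22 (adjusted p = 0.0499), a call lost without the filter on low values, with an intensity trend in the variance prior and in 6 of the 8 fits that left out 1 array. Its adjusted p was 0.205 without sh-scrambled + dox replicate 2, the highest of these. The dim TAP2 probe sets 204770_at and 208428_at lay between 4.13 and 4.80 and between 3.77 and 4.09 on all arrays.

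**Figure D2:**
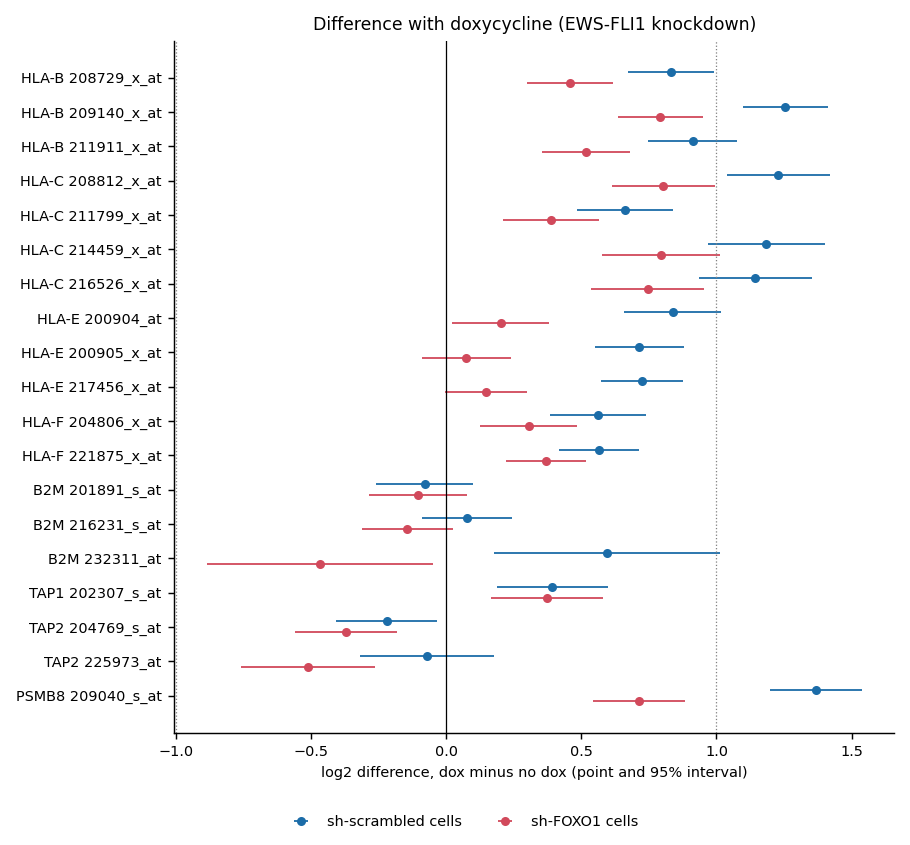
Log2 difference with doxycycline (horizontal axis) for the 19 tested member probe sets (vertical axis) in sh-scrambled (blue) and sh-FOXO1 cells (red), with 95% intervals. Dotted lines mark 2-fold. Points for HLA-B, HLA-C, HLA-E, HLA-F and PSMB8 lie to the right of 0 and are smaller in sh-FOXO1 cells, and those of TAP1 nearly coincide.

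The genes around the members were read from lists of the pathway, with 1 probe set per gene. Past the 2-fold limit, 8.1% of all 12326 genes rose and 7.47% fell with the knockdown, and by adjusted p alone 25.8% rose and 34.5% fell. Of 13 genes for peptide loading and trimming in the endoplasmic reticulum, 1 rose past the limit and 7 by adjusted p alone, and none fell by either. The former was TAPBP, or tapasin, which bridges TAP and class I (1.21, adjusted p = 2.49e-05). TAPBPL, a tapasin relative that edits peptides, and ERAP1, which trims them, rose by 0.92 and 0.71. The list median was 0.44 against -0.06 over all genes. Of 6 other class I-like genes, 2 rose and 3 fell by adjusted p alone. FCGRT, the neonatal IgG receptor, fell past the limit (-1.61), and HLA-G rose by 0.69 on a probe set that may share signal with the classical genes.

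The constitutive proteasome genes did not rise with PSMB8. None of 13 constitutive 20S core genes passed the limit, while 10 fell by adjusted p alone, against the 34.5% of all genes, and none rose, with a list median of -0.29. PSMB5, the subunit that PSMB8 replaces, fell by 0.36, and PSMB6, the subunit that PSMB9 replaces, by 0.28. Of 6 genes for other parts of the immunoproteasome and its regulators, none passed the limit, 2 rose and 2 fell by adjusted p alone, and the list median was -0.33. PSMB10, another immunoproteasome subunit, and PSME1, a subunit of the PA28 activator, rose by 0.27 and 0.40. PSME3, which forms a separate PA28 activator, and POMP, a proteasome assembly factor, fell (-0.55 and -0.48). Among 8 cytosolic peptidases, which destroy peptides, 6 fell by adjusted p alone, again beside 34.5% of all genes, NRDC past the limit (-1.02), and none rose.

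Several regulators known to act on class I genes moved with the knockdown. Of 21 interferon receptor and transactivator genes, 6 rose past the limit and 1 fell. SOCS1, a feedback inhibitor of interferon signalling, rose by 2.32, NFKB1 by 2.08, IRF1 by 1.92, IRF9 by 1.35, and the interferon-γ receptor chains IFNGR1 and IFNGR2 by 1.29 and 1.01. RFXAP, a subunit of the RFX complex that binds MHC promoters, fell by 2.02 on the log2 scale, and JAK1 (-0.47, adjusted p = 0.174) and NFYA (-0.01, adjusted p = 0.932) did not pass the test. None of 4 MHC class II genes passed the test in either direction by limma, and 1 of them, HLA-DRB1, had an unadjusted p under 0.05 (log2 difference 0.30, limma adjusted p = 0.0783). Of 10 NK and T cell ligands, the checkpoint ligands CD274 and PDCD1LG2 rose by 1.53 and 1.03, and MICB, a ligand of the NK receptor NKG2D, fell (-1.21). PDCD1LG2 was dim, at most 5.42 on the shRNA arrays, and reached the filter only on the AKT-resistant FOXO1 array (5.68).

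**Figure D3:**
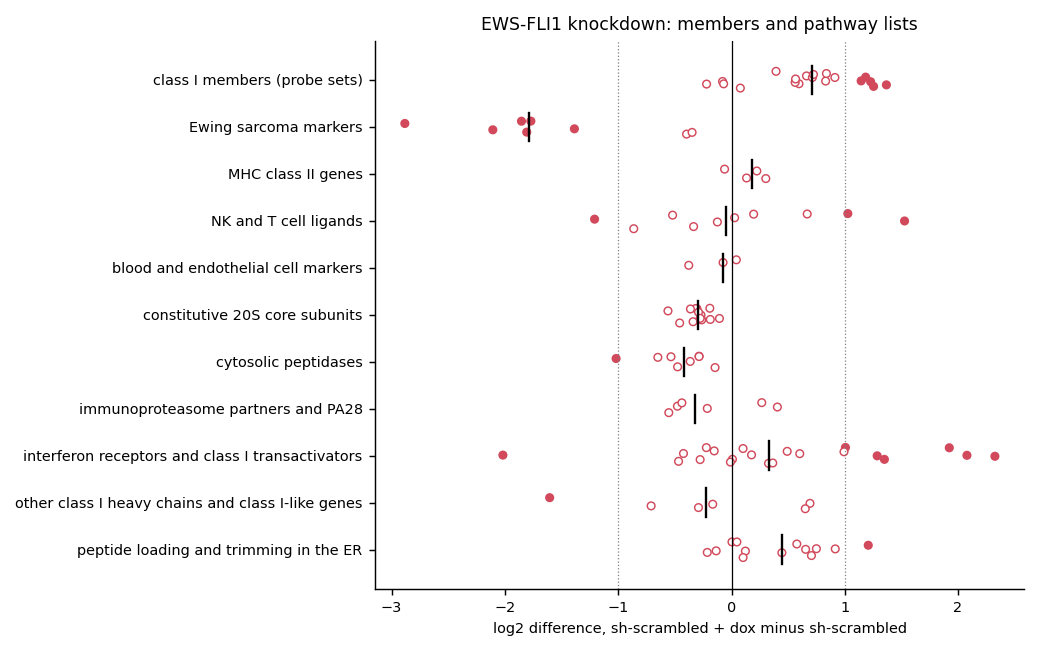
Log2 difference with doxycycline in sh-scrambled cells (horizontal axis) for the 19 member probe sets and for the genes of each pathway list (vertical axis). Filled points passed the adjusted p and the 2-fold limit (dotted lines), and black bars are medians. The member median is 0.71, that of the 20S core -0.29 and that of the Ewing sarcoma markers -1.79.

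Without doxycycline, HLA-E and PSMB8 were higher in sh-FOXO1 than in sh-scrambled cells. By adjusted p alone 4 of 19 member probe sets rose, against 13.2% of all probe sets, and 1 fell, against 12.7%. None passed the limit of 0.7 (1.62-fold) as well, which 2.73% of all probe sets did upward and 1.95% downward. At an unadjusted p under 0.05, 8 rose and 1 fell, against 19.1% and 18.6% of all probe sets. PSMB8 rose by 0.65 (standard error 0.07, adjusted p = 0.000905), and HLA-E by 0.50 on 200904_at, 0.53 on 200905_x_at and 0.42 on 217456_x_at (adjusted p = 0.00331, 0.00182 and 0.00331). The HLA-B probe sets differed by 0.20 to 0.22 and those of HLA-C by 0.10 to 0.19, with none past the test. TAP2 225973_at fell, from 6.29 and 6.49 in sh-scrambled to 5.83 and 5.63 in sh-FOXO1 cells, by 0.66 on the log2 scale (adjusted p = 0.00382). TAP2 204769_s_at did not share this (-0.06, 95% interval -0.25 to 0.13). On the empty vector array, with another plasmid and no FOXO1 hairpin, PSMB8 read 6.14 and HLA-E 200904_at 7.03. Both values lay above the sh-FOXO1 arrays without doxycycline, and whether the sh-FOXO1 or the sh-scrambled level departed was not tested.

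With EWS-FLI1 knocked down, 1 of 19 members was lower in sh-FOXO1 cells past the limit and 4 by adjusted p alone, against 2.02% and 12.3% of all probe sets lower. None of the 19 rose by adjusted p, against 12.6% of all probe sets, nor past the limit (2.54%) or at an unadjusted p under 0.05 (18.9%). TAP2 225973_at read 5.12 and 5.31 in sh-FOXO1 + dox against 6.29 and 6.35 in sh-scrambled + dox, a difference of -1.10 (standard error 0.11, adjusted p = 0.000495). The other TAP2 probe set, 204769_s_at, differed by -0.21 (adjusted p = 0.0988). The remaining 3 were HLA-B 209140_x_at (-0.26, adjusted p = 0.0296), HLA-C 208812_x_at (-0.33, adjusted p = 0.0247) and the dim B2M 232311_at (-0.67, adjusted p = 0.0308). Without sh-scrambled + dox replicate 1, or without sh-FOXO1 + dox replicate 2, TAP2 225973_at alone was left, and without sh-FOXO1 + dox replicate 1 2 probe sets were. PSMB8 differed by 0.00 (95% interval -0.17 to 0.17) and TAP1 by 0.12 (95% interval -0.09 to 0.32).

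**Figure D4:**
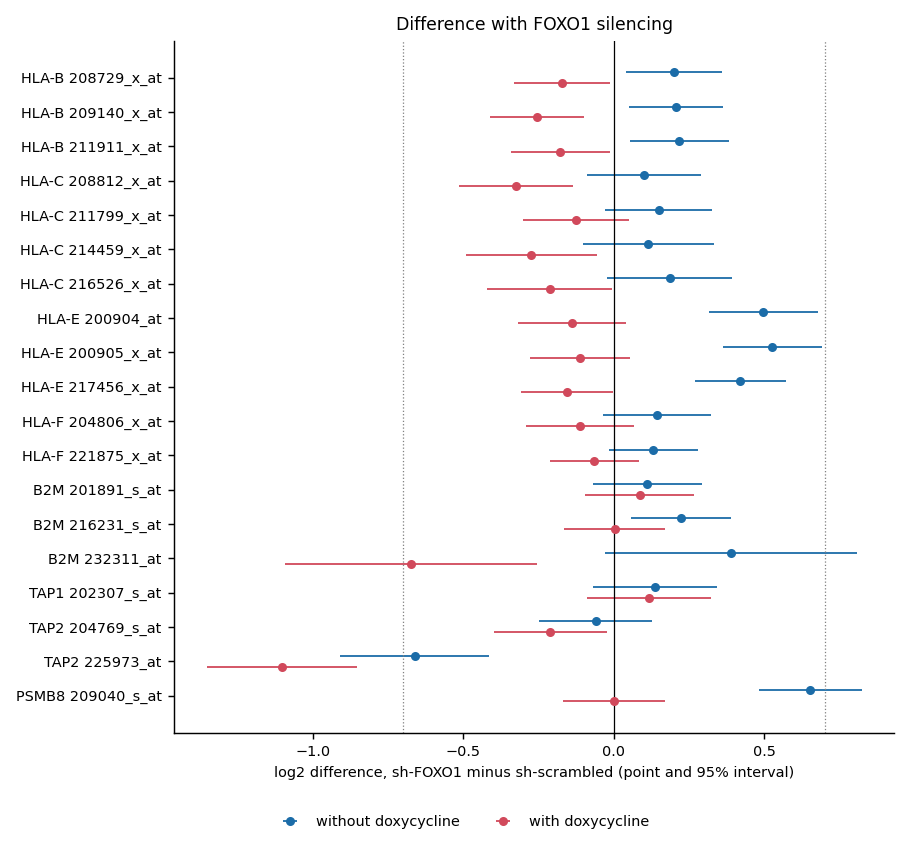
Log2 difference of sh-FOXO1 from sh-scrambled cells (horizontal axis) for the 19 tested member probe sets (vertical axis) without (blue) and with doxycycline (red), with 95% intervals. Dotted lines mark the limit of 0.7. HLA-E and PSMB8 lie to the right of 0 without doxycycline only, and TAP2 225973_at lies to the left in both.

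In sh-FOXO1 cells HLA-B, HLA-C, HLA-F, TAP1 and PSMB8 rose with the knockdown too. By adjusted p alone 11 of 19 rose and 2 fell, against 22.3% and 28.2% of all probe sets, and none rose or fell past the 2-fold limit, against 6.2% and 4.89%. The rise was 0.79 on HLA-B 209140_x_at, 0.80 on HLA-C 208812_x_at and 0.71 on PSMB8. The HLA-E probe sets differed by 0.08 to 0.20 and did not pass the test. The rise of TAP1 did not pass without sh-FOXO1 replicate 2 (adjusted p = 0.0564) or sh-FOXO1 + dox replicate 2 (0.0586), nor that of HLA-F 204806_x_at without sh-FOXO1 replicate 1 (0.0573) or sh-FOXO1 + dox replicate 2 (0.0707). Both probe sets that fell were those of TAP2, 225973_at (-0.51, adjusted p = 0.00473) and 204769_s_at (-0.37, adjusted p = 0.00588).

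The difference between the knockdown effects in sh-FOXO1 and sh-scrambled cells was tested as the interaction. It was negative for all 19 member probe sets, against 50.1% of all probe sets, though several of the 19 report 1 gene or share signal. By adjusted p alone 5 of 19 were lower, against 3.29% of all probe sets, and none higher, against 2.14%. They were PSMB8 (-0.65, adjusted p = 0.0127), HLA-E 200905_x_at (-0.64, adjusted p = 0.0124), 200904_at (-0.64, adjusted p = 0.0174) and 217456_x_at (-0.58, adjusted p = 0.0134), and HLA-B 209140_x_at (-0.46, adjusted p = 0.0343). None passed the limit of 0.7 as well, against 1.89% of all probe sets lower and 1.07% higher. At an unadjusted p under 0.05, 14 were lower and 0 higher, against 11% and 9.99%. TAP1 showed no detectable difference (-0.02, 95% interval -0.31 to 0.27). The 5 calls depended on single arrays, and each was lost in some of the fits that left out 1 array. In these fits the 5 differences stayed between -0.70 and -0.41. The largest difference of any tested member, on the dim B2M 232311_at (-1.06, limma adjusted p = 0.0558), did not pass the test. It lay between -1.30 and -0.82 with 1 array left out.

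Some regulators showed the same sign. IRF1 (-0.92), NFKB1 (-1.40) and SOCS1 (-1.18) had a lower interaction past the limit, 3 of the 21 in their list against 2.38% of all genes. IRF1 averaged 5.91 ± 0.12 in sh-scrambled cells, 7.83 ± 0.19 with doxycycline, 6.41 ± 0.02 in sh-FOXO1 cells and 7.42 ± 0.05 in sh-FOXO1 cells with doxycycline (mean ± SD, n = 2 each). In NFYA, IFNAR1, SEC61A1, UGGT1 and CD274 sh-FOXO1 differed from sh-scrambled cells with and without doxycycline, and none of these 5 genes passed the interaction test (limma adjusted p between 0.274 and 0.993). With doxycycline, NFYA was higher in sh-FOXO1 than in sh-scrambled cells by 1.63 and the interferon receptor chain IFNAR1 lower (-0.96), against 3.07% of all genes higher and 2.37% lower. SEC61A1, a channel subunit of the endoplasmic reticulum, and UGGT1, a folding sensor, were higher by 1.08 and 0.93, and CD274 by 1.05. Without doxycycline NFYA was higher by 1.64, SEC61A1 by 1.29, UGGT1 by 0.76 and CD274 by 1.22, and IFNAR1 was lower (-0.59). The empty vector array, with another plasmid and no FOXO1 hairpin, read 8.18 for NFYA, 8.70 for SEC61A1 and 5.43 for CD274. These lay nearer the sh-FOXO1 means without doxycycline (8.65, 8.87 and 5.79) than the sh-scrambled means (7.01, 7.58 and 4.57). UGGT1 (8.37) and IFNAR1 (6.84) lay nearer the sh-scrambled means (8.34 and 6.16). Which group departed was not tested. All 4 comparisons of shRNA arrays share arrays in pairs, so their differences are not independent.

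The phosphorylation-resistant FOXO1 mutants were set against the empty vector, with 1 array each and therefore no replicate check and no p-value. FOXO1 228484_s_at was higher by 4.87 with AKT-resistant and by 4.14 with CDK2-resistant FOXO1. On 202723_s_at the differences were 2.46 and 1.22, and on 202724_s_at -0.17 and -0.27, so the mutants differed in FOXO1 signal. No tested member passed a log2 difference of 0.7 with AKT-resistant FOXO1, against 1.44% of all probe sets higher and 1.33% lower, nor with CDK2-resistant FOXO1, against 1.28% and 1.45%. HLA-B 209140_x_at differed by 0.16 and 0.20, HLA-C 208812_x_at by 0.14 and 0.25, PSMB8 by -0.20 and 0.20, TAP1 by 0.07 and 0.04 and B2M 216231_s_at by 0.05 and -0.01 with the AKT-resistant and the CDK2-resistant mutant. PSMB9, below the filter, read 5.40 for the empty vector, 4.88 for the AKT-resistant and 5.36 for the CDK2-resistant mutant.

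HLA-E was the member that set the mutants apart. Its probe set 200905_x_at read 9.88 for the empty vector, 10.35 for the AKT-resistant and 9.62 for the CDK2-resistant mutant, and 200904_at read 7.03, 7.28 and 6.58. On all 3 HLA-E probe sets the AKT-resistant array was the highest and the CDK2-resistant array the lowest of the plasmid arrays. Between both mutants the difference was 0.73 on 200905_x_at, 0.70 on 200904_at and 0.57 on 217456_x_at. The former 2 passed 0.7, against 4.04% of all probe sets higher and 3.67% lower, and no member was lower by as much. Against the mean of 3 control arrays (empty vector and both sh-scrambled arrays without doxycycline), AKT-resistant FOXO1 was higher by 0.95 on 200905_x_at and by 0.79 on 217456_x_at, against 5.78% of all probe sets past 0.7, and by 0.65 on 200904_at, the probe set without a cross-matching suffix. The plasmid arrays differ from the sh-scrambled arrays in vector as well as content. All tested member probe sets except the bright B2M ones were higher with empty vector than on both sh-scrambled arrays without doxycycline. Array set and treatment therefore cannot be told apart there.

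**Figure D5:**
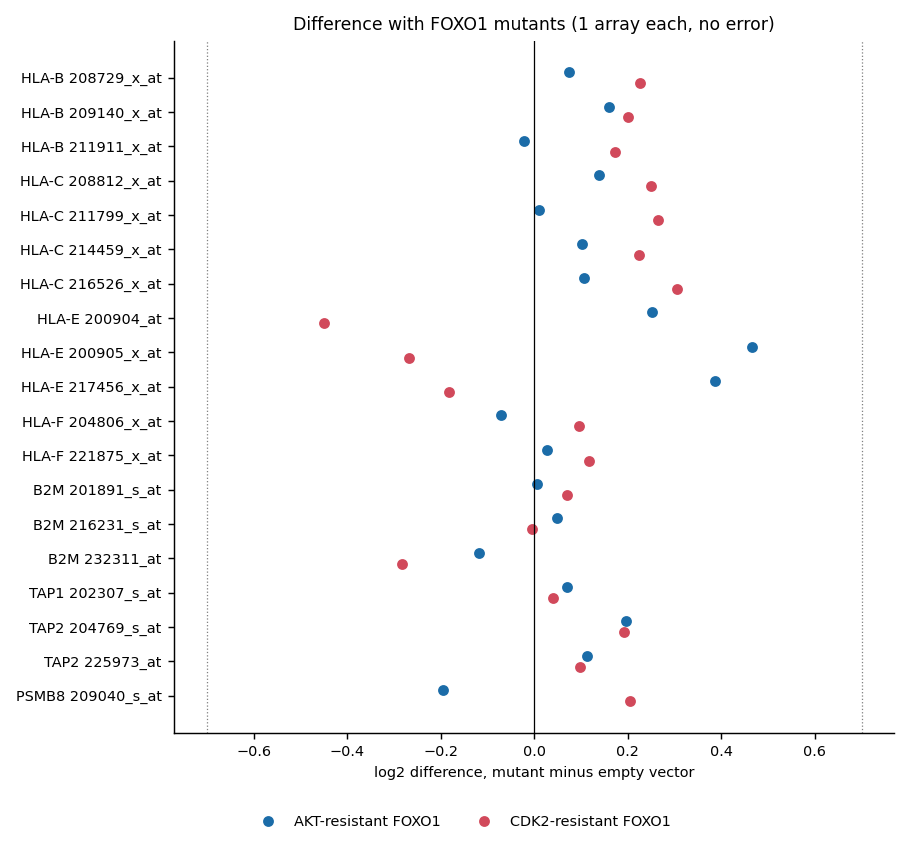
Log2 difference of each FOXO1 mutant from the empty vector (horizontal axis) for the 19 tested member probe sets (vertical axis), AKT-resistant in blue and CDK2-resistant in red, 1 array each and so without error bars. Dotted lines mark 0.7. The HLA-E probe sets lie on opposite sides of 0 for the mutants, from 0.25 to 0.47 and from -0.45 to -0.18.

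The genes whose pattern over the 7 group means was most like that of TAP1, by the root mean square difference of centred means among 12325 genes, were UBE2Q2 (0.03), TWF2 (0.05), OAT (0.05), CD81 (0.05) and SLC29A3 (0.06). For B2M 216231_s_at they were ATP5MK (0.03), TAMALIN (0.04), GRIP2 (0.04), PPP3CA-DT (0.05) and RPL19 (0.05). The group means of TAP1 spanned 0.51 and those of B2M 0.28, so likeness to B2M mostly marks genes that differed little.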

How the data were processed

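A673sh RNA was profiled on 11 HG-U133 Plus 2 arrays (Affymetrix), with groups and replicate numbers as labelled. The authors preprocessed the CEL files in R with Bioconductor packages and deposited 1 normalized log2 value per probe set and array. The base of the log was inferred from the range of 2.60 to 14.64. How probes were summarised is not given here. The number of arrays limits the precision. Symbols come from the platform annotation, updated through gene identifiers for 99.8% of symbols.

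The filter kept 25786 of 54675 probe sets, those that reached the 60th percentile on any array. With limma 3.58.1 in R 4.3.3, 7 group means were fitted to all 11 arrays with empirical Bayes moderation, with 4 residual and 3.73 prior degrees of freedom. Calls needed an adjusted p under 0.05, and where said also a log2 difference past 1 (knockdown) or 0.7 (FOXO1 silencing and interaction). Single arrays were compared by 0.7 alone. List genes were represented by the kept probe set with the largest interquartile range. The rule for named genes covered every member probe set, FLI1 and FOXO1, called list genes (at most 6 each way) and up to 2 others, and the 5 nearest patterns. PSMB5, PSMB6, PSMB10, PSME1, PSME3, POMP, TAPBPL, ERAP1 and HLA-G were named beyond it after their values were seen. The members and lists were chosen with earlier results of these data known. The fit was tested on simulated data.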

Additional observations from a re-analysis of the deposited data

Results flagged for a closer look

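The effect of EWS-FLI1 knockdown differed between sh-FOXO1 and sh-scrambled cells by the interaction term (limma, adjusted p) for 5 member probe sets. The differences (sh-FOXO1 minus sh-scrambled, log2) were -0.65 for PSMB8 209040_s_at, -0.64 for HLA-E 200905_x_at, -0.64 for HLA-E 200904_at, -0.58 for HLA-E 217456_x_at and -0.46 for HLA-B 209140_x_at. For PSMB8 both doxycycline groups were at the same level (6.73 and 6.83 against 6.76 and 6.80) and the groups without doxycycline differed (5.44 and 5.39 against 6.02 and 6.12). For HLA-E 200904_at the sh-FOXO1 arrays were the higher ones without doxycycline (6.41 and 6.46 against 6.92 and 6.96) and slightly the lower ones with it (7.21 and 7.34 against 7.08 and 7.20, a difference of -0.14, limma adjusted p = 0.237). On 200905_x_at and 217456_x_at the difference with doxycycline was -0.11 and -0.15 (limma adjusted p = 0.296 and 0.127). Which FOXO1 shRNA was used is not in the labels, and the part of the hairpin itself was not tested.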

How the results depend on the processing

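No member value called in 1 direction passed the test in the other direction under any alternative run. Some runs could change little or nothing by construction, so the share of unchanged values below is no measure of stability. The fit on the 8 shRNA arrays alone equals the main fit, and a stricter limit leaves single-array differences as they are. Leaving out an array keeps the differences of comparisons that do not hold it. Of 1769 refitted member values, 1623 kept their side of the threshold or moved by less than the spread, 52 lost the call, 55 gained it and 39 single-array values moved. In sh-scrambled cells the counts of members higher with the knockdown, 5 past the limit and 15 by adjusted p alone, stayed within 1.5 times under every alternative.

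The 1 lower member in sh-scrambled cells (TAP2 204769_s_at) went to 0 with no filter and with an intensity trend, and was 0 to 1 with 1 array left out. For FOXO1 silencing with the knockdown, members lower were 10 at an unadjusted p, and with 1 array left out 1 to 4 by adjusted p and 1 to 2 past the limit. For FOXO1 silencing without doxycycline, members higher were 7 with an intensity trend and 9 with the replicate block. At an unadjusted p they were 8, against 19.1% of all probe sets. Shares of all probe sets by adjusted p alone were computed for the main setting only. With 1 array left out, PSMB8 differed by 0.60 to 0.70 and TAP2 225973_at by -0.76 to -0.56. For the interaction, members lower by adjusted p were 11 with the replicate block. At an unadjusted p 14 were lower, against 11% of all probe sets. Past the limit 1 was lower with an intensity trend, the replicate block or an unadjusted p, against 495, 562 and 568 of all 25786 probe sets. With 1 probe set per gene 1 was lower too, against 302 of 12326 genes. That member was B2M 232311_at (-1.06, limma adjusted p = 0.0558 in the main setting, 0.028 with the block and 0.0432 with 1 probe set per gene). AKT-resistant FOXO1 had 2 members higher against 3 control arrays, beside 5.78% of all probe sets. Between the mutants 1 member was higher after quantile normalization once more and 0 past a limit of 1, beside 896 and 384 of all 25786 probe sets. The cause of these changes was not tested, other than fewer arrays or an unadjusted p by construction.

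The labels do not say that equal replicate numbers share a culture or day. Deviations of equally numbered arrays correlated at 0.42 to 0.62 over 25786 probe sets, with only 2 numbers, so the replicate block is no more than an alternative. With 1 probe set per gene, adjusted over genes, PSMB9 has no kept probe set and the 8 other members gave 3 genes higher past the limit in sh-scrambled cells. With 1 array left out of a pair, the lone array is assumed to vary like the other groups.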
